A study of Mus musculus with 6 samples.

Results

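Iron handling in macrophages was examined through 10 named genes among the 22248 genes listed for resting bone-marrow-derived macrophages (BMDMs). The genes were chosen by name, for their place in iron uptake, release, storage and control. The rule uses no measured value, although the choice was made with earlier results of these data known. The 10 genes are *Tfrc*, *Steap3*, *Slc11a1*, *Slc11a2*, *Slc40a1*, *Fth1*, *Ftl1*, *Ncoa4*, *Hfe* and *Ireb2*. RNA was sequenced from C57BL/6 mice of 2 genotypes, *Lyz2*cre (control) and *Cited2*fl/fl:*Lyz2*cre (CITED2-deficient), with 3 libraries of each. Both genotypes carry Cre recombinase at the *Lyz2* locus, which is active in macrophages and granulocytes, and only the latter has *Cited2* alleles flanked by loxP sites. The BMDMs were grown from bone marrow in medium with macrophage colony-stimulating factor and received no stimulus. The sample labels place the mice at postnatal week 10, whereas the study's methods give a younger age. No source ties a library to a particular mouse, so p-values below describe the spread between these libraries, which may be technical.

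Macrophages take up iron bound to transferrin and, as scavengers of worn red cells, from hemoglobin and heme. Iron that is not used is stored in ferritin, a shell built of heavy and light chains, or leaves the cell through ferroportin, the product of *Slc40a1*. Iron regulatory proteins adjust this traffic after transcription. When iron is scarce they bind iron-responsive elements, short RNA hairpins with a bulged C and a CAGTGN loop. A hairpin in the 5′ UTR blocks translation of the ferritin chains and ferroportin, and hairpins in the 3′ UTR protect the mRNA of *Tfrc*, the transferrin receptor, from decay. Transcript levels of these genes therefore need not follow the amounts of their proteins, which were not measured in these libraries.

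The hairpins are shown because a search for their pattern divides the 10 genes into those with a match and those without. The pattern searched on the transcript strand was a C, 5 bases, CAGTGN, and 5 bases that pair with the 5 before the loop, with G-T pairs allowed. In the GENCODE vM21 transcripts it was found in 294 of 21901 protein-coding genes (1.34%) and in 4 of the 10 members. *Fth1*, *Ftl1* and *Slc40a1* each hold 1 match in the 5′ UTR, and *Tfrc* holds 4 in the 3′ UTR part of its last exon, exon 19. A match is a description of the letters, and the absence of this pattern from the other 6 genes says nothing of their control. The search requires all 5 pairs, so an iron-responsive element with an unpaired base in this stem would be missed. The sites of both ferritin chains lie in exon 1 of their main transcripts, at chr19:9982734-9982759 (mm10, + strand) for *Fth1* and chr7:45459780-45459805 (mm10, - strand) for *Ftl1*. The *Tfrc* sites, in order along the + strand, lie at chr16:32631221-32631246, chr16:32631600-32631625, chr16:32631665-32631690 and chr16:32631712-32631737 (mm10). Each is written 5′ to 3′ as DNA, with the bulged C and the loop in capitals.
Fth1: cctgCttcaaCAGTGCttgaacggaa
Ftl1: cttgCttcaaCAGTGTttgaacggaa
Tfrc site 1: ttatCggaagCAGTGCcttccataat
Tfrc site 2: ttatCgggagCAGTGTcttccataat
Tfrc site 3: atatCggagaCAGTGAtctccatatg
Tfrc site 4: ttatCgggaaCAGTGTttcccataat
The ferritin sites share the same stem, while the 4 receptor sites have stems of their own.

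Values are FPKM, fragments scaled to transcript length and library size, which the authors computed for each gene and library. Library sizes inferred from the FPKM steps were between 17289286 and 18952078 fragments in control libraries and between 22583994 and 26100408 in CITED2-deficient libraries. *Cited2* itself stood at 71.7 to 79.3 FPKM in control and 7.22 to 9.27 FPKM in CITED2-deficient libraries. All 8 macrophage markers were detected, with a summed level of 5624 to 5694 FPKM in control and 5287 to 5367 FPKM in CITED2-deficient libraries. By the test described below, 1 was higher and 5 were lower in CITED2-deficient BMDMs, while 51.3% of all tested genes were called. *Lyz2*, whose locus carries Cre in both genotypes, was among the lower markers. Fibroblast and stromal markers were higher in CITED2-deficient libraries for 6 of 6 tested, with sums of 42.0 to 50.1 against 169.8 to 539 FPKM. Replicate 1 of the CITED2-deficient libraries stood apart with the highest sum. *Pdgfrb*, at a control mean of 0.936 FPKM, passed the minimum mean of 1 FPKM for testing only through its CITED2-deficient libraries. Neutrophil markers summed to 727 to 795 against 658 to 777 FPKM, with 1 of 7 tested higher and 5 lower. Of 6 proliferation markers, 1 (*Pcna*) was higher, 2 were lower and 3 were not called, with a median log2 fold change of -0.23, although the sum, most of it *Pcna*, was 293 to 323 against 335 to 356 FPKM. Of 6 listed erythroid markers, 5 were under 1 FPKM in all 6 libraries, and the summed level was 2.43 to 3.51 in control and 0.952 to 1.52 in CITED2-deficient libraries. Dendritic cell markers summed to at most 1.07 FPKM and B and T cell markers to at most 1.94 FPKM. In bulk RNA, fewer cells of a type and less RNA per cell cannot be told apart.

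The iron handling genes of CITED2-deficient BMDMs were mostly lower than in control BMDMs. Of the 10 members, 7 were lower, 2 were higher and 1 did not pass the threshold (limma on log2(FPKM + 1), Benjamini-Hochberg adjusted p under 0.05). The mean level of *Hfe* fell by 47.8%, that of *Tfrc* fell by 43.0%, that of *Slc11a1* fell by 37.3% and that of *Ncoa4* fell by 31.6%. The 2 increases were of *Steap3*, by 37.5%, and *Slc11a2*, by 11.2%. These counts stand against a broad shift, since 51.3% of the 11687 tested genes were called, 16.7% as higher and 34.6% as lower. The lean toward lower calls depends on the scaling between libraries, since 32.5% of calls were higher as deposited and 50.5% after median-ratio scaling, where 2 members were higher and 6 lower. The median log2 fold change was -0.25 over the 10 members and -0.10 over all tested genes. The values of control and CITED2-deficient libraries did not overlap for 9 of the 10 members, beside 59.9% of all tested genes. With a fold change of at least 1.5 added to the threshold, *Hfe*, *Tfrc* and *Slc11a1* remained lower, and 5.9% of all tested genes were lower by this rule.

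**Figure D1:**
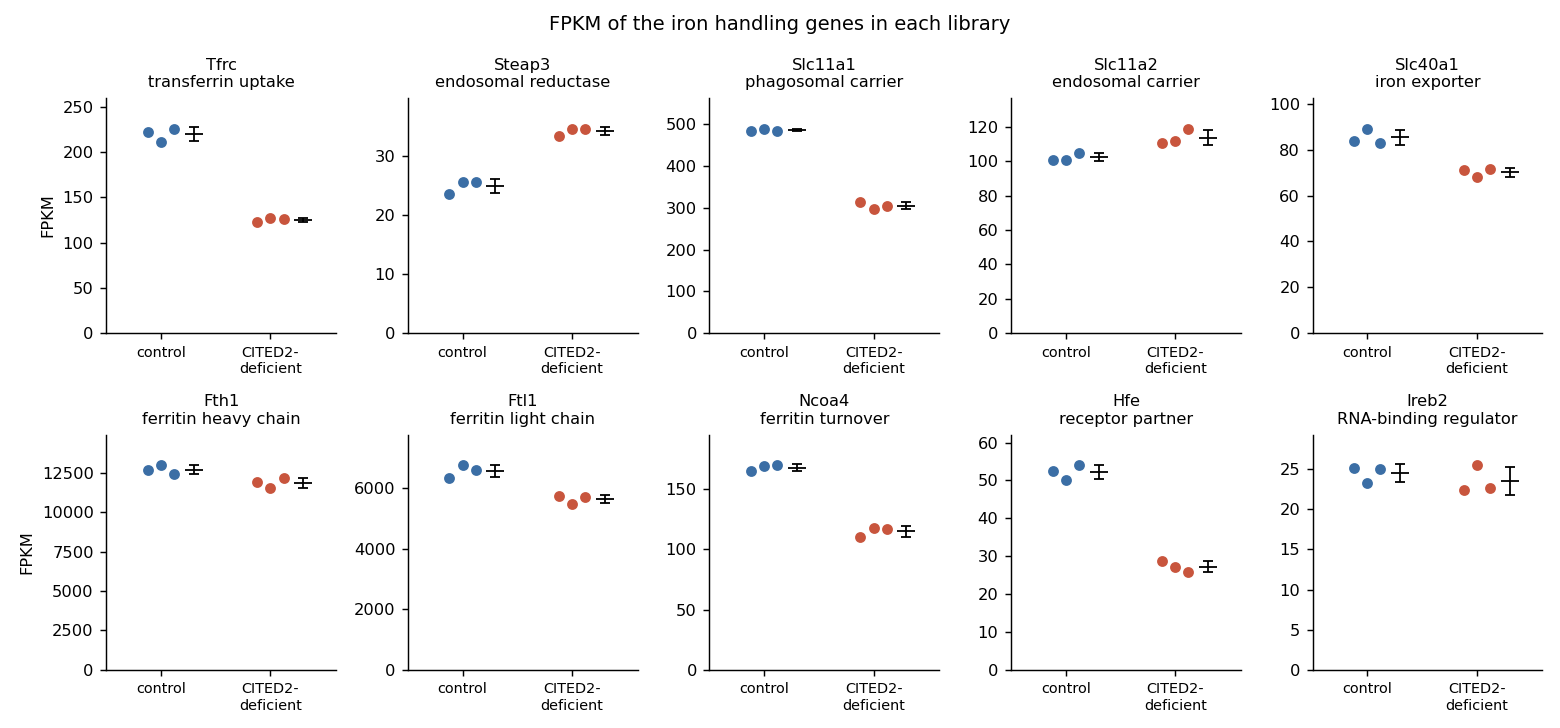
FPKM (y axis, from 0) of the 10 iron handling genes in the 3 control and 3 CITED2-deficient libraries. Points are libraries and the black bar is the mean with the SD. The groups are apart in every panel except that of *Ireb2*, and only *Steap3* and *Slc11a2* are higher in CITED2-deficient BMDMs.

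*Tfrc* (ENSMUSG00000022797, mm10 chromosome 16, 32608920 to 32632794) encodes transferrin receptor 1, which carries iron-loaded transferrin into endosomes. Control replicates 1 to 3 had 222, 211 and 226 FPKM, whereas CITED2-deficient replicates 1 to 3 had 123, 127 and 126 FPKM, and values of later genes follow the same order. Every CITED2-deficient library lay below every control library, by much more than the spread within either group. The means were 219.7 ± 7.99 and 125 ± 2.03 (SD, n = 3 each), which is a log2 fold change of -0.80 (SE 0.034, limma adjusted p = 1.24e-07). *Tfrc* was lower even in fragment numbers not scaled to depth, at 6523 to 7670 in control against 5132 to 5887 in the deeper CITED2-deficient libraries. Only 2.83% of tested genes had a lower log2 fold change.

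*Steap3* (ENSMUSG00000026389, chromosome 1, 120190757 to 120272705) encodes the endosomal ferrireductase that reduces iron released from transferrin. It was at 23.5, 25.6 and 25.5 FPKM in control and 33.4, 34.5 and 34.6 FPKM in CITED2-deficient libraries, with no overlap. This was an increase, opposite in direction to the receptor of the same endosome. The means of 24.8 ± 1.21 and 34.2 ± 0.711 (SD, n = 3 each) gave a log2 fold change of 0.45 (SE 0.048, limma adjusted p = 6.26e-05), and 90.4% of tested genes had a lower value.

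The divalent metal carriers *Slc11a1* and *Slc11a2* moved in opposite directions. *Slc11a1* (ENSMUSG00000026177, chromosome 1, 74375195 to 74386062) encodes NRAMP1, which moves iron and manganese across the phagosome membrane of macrophages and neutrophils, and C57BL/6 mice carry a susceptibility allele that impairs the protein. Its FPKM was 484, 489.8 and 485 in control and 313, 298 and 305 in CITED2-deficient libraries. The control libraries lay within a few FPKM of each other and far above the other group. The log2 fold change was -0.67 (SE 0.027, limma adjusted p = 9.88e-08). *Slc11a2* (ENSMUSG00000023030, chromosome 15, 100387898 to 100425072) encodes DMT1, which releases iron from endosomes into the cytosol. It was at 101, 101 and 105 FPKM in control and 110.4, 112 and 119 FPKM in CITED2-deficient libraries. The groups did not overlap, but the gap between them was smaller than the range of the CITED2-deficient group. The log2 fold change was 0.15 (SE 0.037, 95% interval 0.068 to 0.24, limma adjusted p = 0.00768).

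*Slc40a1* (ENSMUSG00000025993, chromosome 1, 45908068 to 45926523) encodes ferroportin, the iron exporter. Its FPKM was 84.0, 89.2 and 82.8 in control and 71.0, 68.0 and 71.6 in CITED2-deficient libraries. All CITED2-deficient libraries were lower, with means of 85.3 ± 3.42 and 70.2 ± 1.92 (SD, n = 3 each). The log2 fold change was -0.28 (SE 0.040, limma adjusted p = 0.000399), a smaller decrease than that of *Tfrc*, and 23.8% of tested genes had a lower value.

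The ferritin genes had the highest FPKM of the members and changed little. *Fth1* (ENSMUSG00000024661, chromosome 19, 9980598 to 9985098), the heavy chain with ferroxidase activity, ranked 2 by FPKM among all genes in every library. It was at 12707, 12998 and 12468 FPKM in control and 11954, 11537 and 12159.7 FPKM in CITED2-deficient libraries. The groups did not overlap but lay close together. The log2 fold change of -0.099 (SE 0.031, 95% interval -0.17 to -0.030, limma adjusted p = 0.0239) was that of the median tested gene. The call was lost in 8 of 16 alternative fits, and after median-ratio scaling between libraries the log2 fold change was -0.0025.

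*Ftl1* (ENSMUSG00000050708, chromosome 7, 45457944 to 45459884), the light chain that supports the mineral core, was at 6347, 6755 and 6615 FPKM in control and 5739, 5481 and 5709 FPKM in CITED2-deficient libraries. Every CITED2-deficient library was lower than every control library. The log2 fold change was -0.22 (SE 0.032, limma adjusted p = 0.000459). The 2 chains together made up 2.85% to 2.92% of the summed FPKM in control and 2.59% to 2.70% in CITED2-deficient libraries. Ferritin genes have near-identical processed copies, so part of their reads could have been assigned to these, and the small differences are uncertain to that extent. The most abundant copy, *Ftl1-ps1*, was at 24.2, 24.7 and 39.3 FPKM in control and 40.8, 33.2 and 38.3 FPKM in CITED2-deficient libraries, and was not called (limma adjusted p = 0.0889).

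*Ncoa4* (ENSMUSG00000056234, chromosome 14, 32159865 to 32179855) encodes the receptor that delivers ferritin to autophagosomes and lysosomes, where its iron is released. Its FPKM was 165, 169 and 169.9 in control and 109.9, 118 and 117 in CITED2-deficient libraries. The groups were far apart, with means of 168 ± 2.71 and 115 ± 4.46 (SD, n = 3 each). The log2 fold change was -0.55 (SE 0.035, limma adjusted p = 2.3e-06), larger than that of either ferritin chain.

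*Hfe* (ENSMUSG00000006611, chromosome 13, 23702034 to 23710854) encodes the hemochromatosis protein, an MHC class I-like partner of the transferrin receptor. It was at 52.6, 50.1 and 54.0 FPKM in control and 28.8, 27.1 and 25.9 FPKM in CITED2-deficient libraries. This was the largest change of any member on the log2 scale, with a log2 fold change of -0.91 (SE 0.050, limma adjusted p = 7.44e-07), and 1.99% of tested genes had a lower value. The genes whose pattern over the 6 libraries was most like that of *Hfe* were *Ldb1*, *Cdc42se1* and *Ppfibp2*, with Pearson r of log2(FPKM + 1) of 0.9997, 0.9992 and 0.9989. With 2 separated groups such values are common, and 283 genes had an r over 0.99.

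*Ireb2* (ENSMUSG00000032293, chromosome 9, 54863789 to 54912530) encodes iron regulatory protein 2, which is itself controlled mainly by protein degradation. Its FPKM was 25.2, 23.3 and 25.1 in control and 22.4, 25.5 and 22.7 in CITED2-deficient libraries. CITED2-deficient replicate 2 was the highest of all 6 libraries, so the groups overlapped. A difference was not detectable, with a log2 fold change of -0.061 (SE 0.061, 95% interval -0.20 to 0.078, limma adjusted p = 0.432), and the sign turned under other scalings between libraries.

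**Figure D2:**
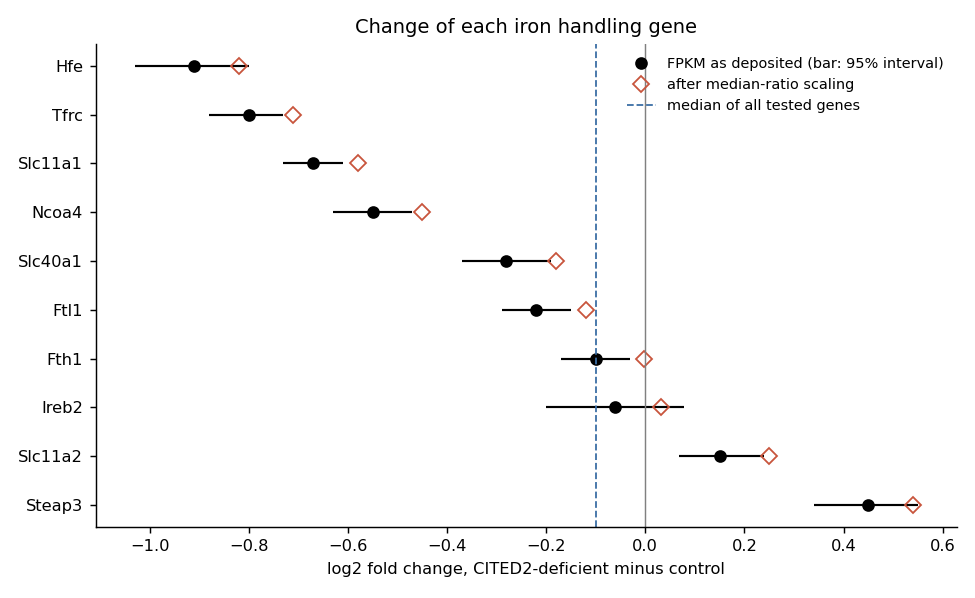
Log2 fold change (x axis, CITED2-deficient minus control) of each iron handling gene, with its 95% interval, as deposited (black) and after median-ratio scaling between libraries (open diamonds). The dashed line is the median of all tested genes at -0.10; *Fth1* lies on it, *Hfe*, *Tfrc*, *Slc11a1* and *Ncoa4* lie far below it and *Steap3* lies farthest above.

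The library with the most fibroblast marker RNA did not decide the calls. Without CITED2-deficient replicate 1 the log2 fold change was -0.95 for *Hfe*, -0.79 for *Tfrc*, -0.69 for *Slc11a1*, -0.51 for *Ncoa4*, -0.29 for *Slc40a1*, -0.23 for *Ftl1*, -0.10 for *Fth1*, 0.17 for *Slc11a2* and 0.46 for *Steap3*, and 9 of 10 members were still called. Fibroblast markers are also above control in the other CITED2-deficient libraries, and their part in the members' levels was not tested. The fewest fragments behind any member's value were 1128, for which counting error is 2.98%, and the coefficients of variation within groups ran from 0.631% to 7.45%.

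FPKM is scaled to a length for each gene. Whole fragment numbers were recovered with the mean length of all annotated transcripts of a gene, which can differ from that of the expressed mRNA. The order of genes below is therefore that of FPKM and need not be that of mRNA numbers. In control libraries the order was *Fth1*, *Ftl1*, *Slc11a1*, *Tfrc*, *Ncoa4*, *Slc11a2*, *Slc40a1*, *Hfe*, *Steap3* and *Ireb2*, and only the lowest neighbors, *Steap3* and *Ireb2*, had overlapping ranges. In CITED2-deficient libraries *Steap3*, at 33.4 to 34.6 FPKM, stood above *Hfe*, at 25.9 to 28.8 FPKM. *Ncoa4* and *Slc11a2* overlapped there, whereas in control libraries *Ncoa4* was above *Slc11a2* without overlap.

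Ratios within a library do not depend on the scaling between libraries, and 4 were compared. The size of a ratio depends on the length used for each gene, but its log2 difference between the groups does not. The ratio of *Slc11a1* to *Slc11a2* was 4.80, 4.85 and 4.64 in control and 2.83, 2.67 and 2.57 in CITED2-deficient libraries, a log2 difference of -0.83. *Tfrc* to *Fth1*, the receptor over the store, was 0.0173 ± 0.000977 in control and 0.0106 ± 0.000392 in CITED2-deficient libraries (SD, n = 3 each), a log2 difference of -0.71. *Slc40a1* to *Tfrc*, the exporter over the importer, was 0.389 ± 0.0302 in control and 0.560 ± 0.0218 in CITED2-deficient libraries (SD, n = 3 each), a log2 difference of 0.53. *Fth1* to *Ftl1* was 1.94 ± 0.0597 and 2.11 ± 0.0235 (SD, n = 3 each), a log2 difference of 0.12. The libraries of the groups did not overlap for any of the 4 ratios, and for single genes the same held for 59.9% of all tested. *Tfrc* and *Fth1* recur among the ratios, so the 4 are not independent. In *Slc40a1* to *Tfrc* both genes were lower, with log2 fold changes of -0.28 and -0.80. Each had a two-sided exact permutation p of 0.1 (0.1 after adjustment over the 4), which is the smallest p that 3 against 3 libraries allow, so none could pass 0.05.

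**Figure D3:**
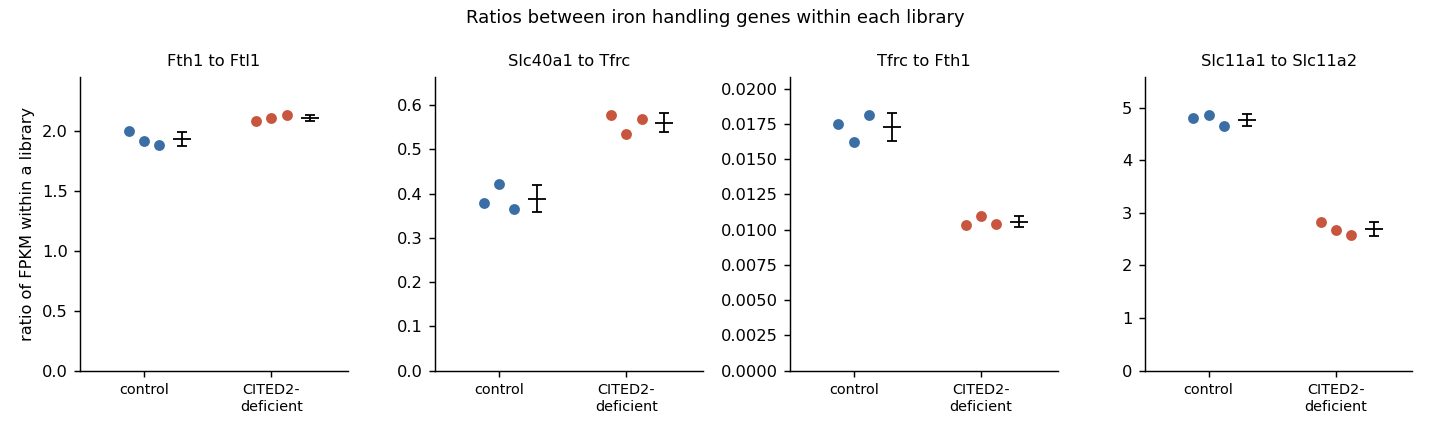
Ratio of FPKM (y axis, from 0) of 4 pairs of iron handling genes within each of the 3 control and 3 CITED2-deficient libraries. Points are libraries and the black bar is the mean with the SD. *Tfrc* to *Fth1* and *Slc11a1* to *Slc11a2* are lower, and *Slc40a1* to *Tfrc* and *Fth1* to *Ftl1* higher, in all 3 CITED2-deficient libraries.

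The rest of the iron pathway was taken from 7 lists of 63 genes, of which 59 were listed and 49 tested. Of these, 36 were called, 9 as higher and 27 as lower, with a median log2 fold change of -0.21. The share called was 73.5%, beside 51.3% of all tested genes, and 8 of the 49 (16.3%) also passed a fold change of 1.5, beside 13.3% of all tested genes. By list the share called ran from 50.0% in the ferritinophagy machinery to 100% of the 2 tested genes of the transferrin, hepcidin and HFE list.

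Heme and hemoglobin recycling held the largest decrease of all 7 lists, that of *Cd163*. Of 13 tested genes, 4 were higher, 7 were lower and 2 were not called, with a median log2 fold change of -0.21. *Cd163*, the receptor for hemoglobin bound to haptoglobin, was at 18.4, 16.9 and 18.4 FPKM in control and 3.62, 3.26 and 3.41 FPKM in CITED2-deficient libraries. That was a log2 fold change of -2.09 (SE 0.070, limma adjusted p = 2.71e-08), on a scale that understates the change of low genes. *Hmox1*, the inducible heme oxygenase that frees iron from heme, was at 568, 579.8 and 559 FPKM in control and 312, 314 and 308 FPKM in CITED2-deficient libraries. Its log2 fold change was -0.87 (SE 0.026, limma adjusted p = 1.47e-08). *Spic*, a transcription factor of red pulp macrophages that drives iron recycling genes, was low at 2.16 ± 0.409 FPKM and lower still at 0.819 ± 0.125 FPKM (SD, n = 3 each). It passed the minimum mean of 1 FPKM for testing only through its control libraries. Its values rest on 50 to 67 fragments in control and 26 to 37 in CITED2-deficient libraries. *Blvrb*, a biliverdin reductase, went from 263 ± 16.9 to 163 ± 9.51 FPKM (SD, n = 3 each), with a log2 fold change of -0.68 (limma adjusted p = 7.9e-06).

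The transferrin, hepcidin and HFE list had 2 tested genes of 8, and they moved in opposite directions. *B2m*, which encodes the light chain that HFE and all MHC class I proteins need to reach the surface, was at 2502, 2510.2 and 2441 FPKM in control and 5185, 5271 and 5237 FPKM in CITED2-deficient libraries. Its log2 fold change was 1.07 (SE 0.025, limma adjusted p = 2.29e-09), so *Hfe* and the gene of its partner chain changed in opposite directions. *Trf*, which encodes transferrin, was at 25.7, 28.5 and 23.2 FPKM in control and 14.6, 6.50 and 7.58 FPKM in CITED2-deficient libraries, where replicate 1 was the highest. Its log2 fold change was -1.42 (SE 0.229, limma adjusted p = 0.000834), and the call held with each of the 6 libraries left out in turn.

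**Figure D4:**
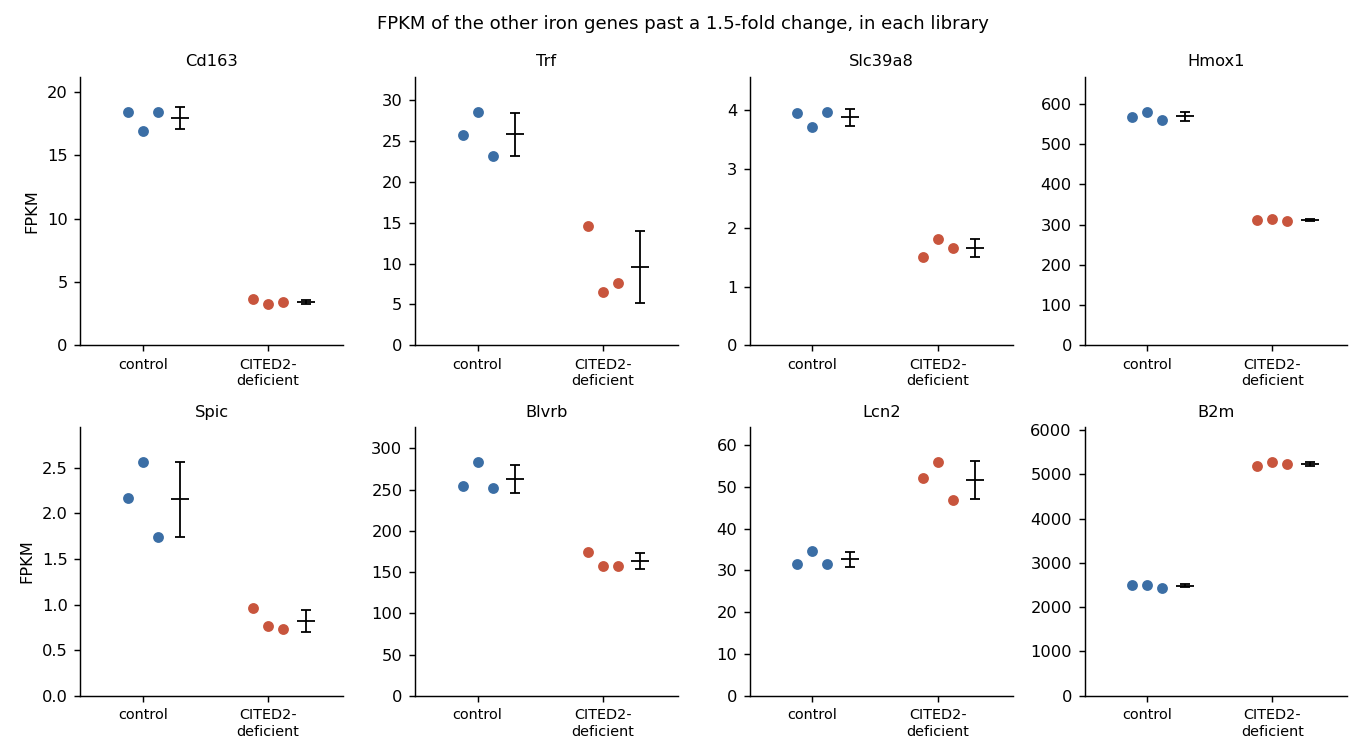
FPKM (y axis, from 0) of the 8 other iron genes past a fold change of 1.5, in the 3 control and 3 CITED2-deficient libraries. Points are libraries and the black bar is the mean with the SD. *Cd163*, *Trf*, *Slc39a8*, *Hmox1*, *Spic* and *Blvrb* are lower and *Lcn2* and *B2m* higher in CITED2-deficient BMDMs. The genes were picked for their change in these same libraries, so the separation of the groups adds no support. The groups did not overlap for 38 of the 49 other tested iron genes, beside 59.9% of all tested genes. *Spic* was tested only through its control libraries.

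Among ferroxidases, reductases and other carriers, 5 of 12 genes were tested, 1 was higher, 3 were lower and 1 was not called, with a median log2 fold change of -0.32. *Slc39a8*, a zinc and iron importer, was low at 3.88 ± 0.137 FPKM and fell to 1.66 ± 0.153 FPKM (SD, n = 3 each). *Cp*, which encodes the plasma ferroxidase ceruloplasmin, fell from 13.6 ± 0.887 to 8.78 ± 0.839 FPKM and *Mcoln1*, which encodes a lysosomal cation channel that passes iron, from 92.6 ± 2.85 to 74.2 ± 4.18 FPKM (SD, n = 3 each). *Lcn2*, which encodes the siderophore-binding lipocalin, rose from 32.6 ± 1.73 to 51.6 ± 4.51 FPKM (SD, n = 3 each), with a log2 fold change of 0.64 (limma adjusted p = 4.56e-05).

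Of the 4 iron regulatory proteins and iron chaperones, 3 were lower and 1 was not called, with small differences and a median log2 fold change of -0.18. *Aco1*, which encodes iron regulatory protein 1, had a log2 fold change of -0.21, *Fbxl5*, which encodes the ubiquitin ligase subunit that removes iron regulatory protein 2 when iron is plentiful, one of -0.32, and *Pcbp2*, an iron chaperone gene, one of -0.15 (limma adjusted p = 0.00111, 0.00055 and 0.00495). The *Pcbp2* call was lost after median-ratio scaling, where its log2 fold change was -0.050.

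In the mitochondrial list, 10 of 10 genes were tested, 2 were higher, 4 were lower and 4 were not called, with a median log2 fold change of -0.18. *Slc25a37*, which encodes the mitochondrial iron importer mitoferrin 1, rose with a log2 fold change of 0.41 (SE 0.047, limma adjusted p = 8.59e-05). The heme synthesis genes *Urod*, *Uros* and *Ppox* had log2 fold changes of -0.41, -0.34 and -0.31 (limma adjusted p = 4.67e-05, 0.0113 and 0.00407), and the *Uros* call was lost after quantile normalization.

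Of 9 iron-sulfur cluster assembly genes, 1 was higher, 6 were lower and 2 were not called, with a median log2 fold change of -0.24. *Glrx5*, a glutaredoxin gene, had a log2 fold change of -0.43 (limma adjusted p = 0.00285). The cochaperone gene *Hscb*, *Lyrm4*, which encodes a partner of the cysteine desulfurase, and *Isca1*, a scaffold gene, had log2 fold changes of -0.30, -0.29 and -0.26, and these 3 calls were lost after median-ratio scaling. *Lyrm4* and *Isca1* also lost theirs after quantile normalization. *Lyrm4* was still called with 2 of the 6 libraries left out in turn, and lost its call on leaving out replicate 2 or replicate 3 of either group (limma adjusted p of 0.0895 to 0.106). *Hscb* was not called without control replicate 3 (limma adjusted p = 0.052).

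The ferritinophagy machinery had 6 tested genes, none higher, 3 lower and 3 not called, with a median log2 fold change of -0.17. The share called, 50.0%, was close to the 51.3% of all tested genes. *Map1lc3b*, which encodes the autophagosome protein LC3B, had a log2 fold change of -0.42 (limma adjusted p = 3.45e-05). *Gabarapl2*, of the same protein family, and *Rb1cc1*, which encodes a subunit of the autophagy-initiating kinase complex, had log2 fold changes of -0.27 and -0.21, and both calls were lost after median-ratio scaling.

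**Figure D5:**
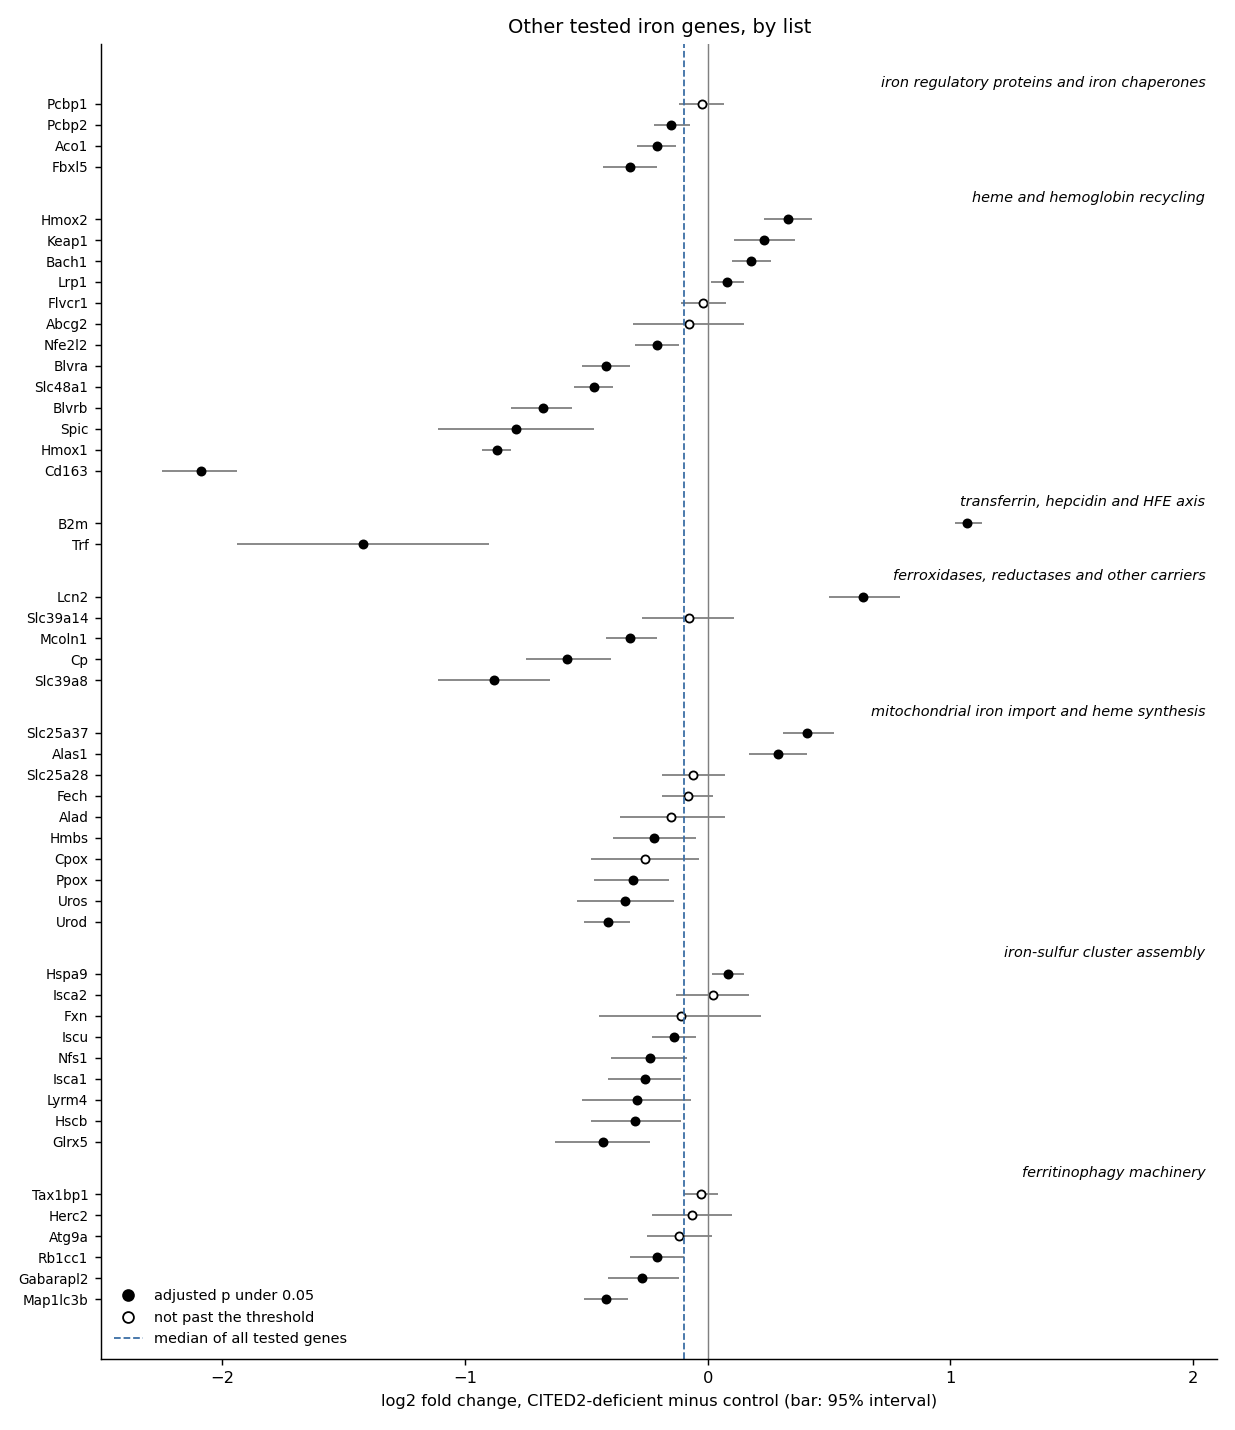
Log2 fold change (x axis, CITED2-deficient minus control) with its 95% interval of the 49 other tested iron genes, by list. Filled points passed an adjusted p of 0.05, the dashed line is the median of all tested genes, and *Cd163* at -2.09 and *B2m* at 1.07 mark the ends.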

How the data were processed

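RNA of BMDMs was sequenced in 3 control and 3 CITED2-deficient libraries. The authors removed ribosomal RNA, prepared stranded libraries, aligned them to mm10 by STAR and deposited FPKM per gene and library, computed by Cuffdiff with the GENCODE annotation, with no pooling over replicates. For tool versions and the annotation release, nothing is given in the sources used here. FPKM are already scaled to length and library size, so strongly changed genes can shift the others.

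Libraries were grouped by their labelled genotype. For depth, fragment numbers were recovered with the mean GENCODE vM21 transcript length of each gene. In 96.1% of 22239 matched genes every library gave a value no more than 0.02 away from an integer. The 11687 genes whose FPKM averaged at least 1 were fitted on log2(FPKM + 1) by limma (version 3.58.1, R 4.3.3) using a variance trend, with two-sided p-values adjusted by the Benjamini-Hochberg method over all tested genes, at a threshold of 0.05. Fold changes are on that scale, which understates changes of low genes. All 10 members passed the filter. The 4 ratios were compared by exact permutation over the 6 libraries. The fit was also run on simulated data with few changed genes and the same noise setting for all genes, unlike these data. No result here rests on that run.

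No 2 replicates looked like 1 library deposited again (chi-square of 2.31 to 6.41 per gene, on average, between libraries of a group), and all were kept. Named genes are the 10 members, *Cited2*, up to 4 called genes per list with the largest absolute log2 fold change, and the 3 genes most like the member with the largest change. The members and lists were chosen with earlier results of these data known. The ferritin copy and the genes in the closing section were picked with their values in view. Each alternative changed 1 choice: the pseudocount (0.1, 0.5), the filter (none, or a minimum mean of 5 FPKM), median-ratio scaling, quantile normalization, no trend, a replicate block, array weights, leaving out single libraries, and a fold change of at least 1.5. Limma-voom on the recovered fragments was added after the data had been seen. Transcript sequences were read from GENCODE vM21. Protein sequences were not used here.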

Additional observations from a re-analysis of the deposited data

How the results depend on the processing

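Apart from *Fth1* and *Ireb2*, the members kept their direction and their call under all 16 alternative fits. These fits include limma-voom and leave out the fold change rule. Log2 fold changes were -0.95 to -0.82 for *Hfe*, -0.83 to -0.71 for *Tfrc*, -0.69 to -0.58 for *Slc11a1*, -0.57 to -0.45 for *Ncoa4*, -0.30 to -0.18 for *Slc40a1*, -0.35 to -0.12 for *Ftl1*, 0.12 to 0.25 for *Slc11a2* and 0.41 to 0.54 for *Steap3*. *Fth1* was no longer called with no filter, without the trend, after median-ratio scaling or quantile normalization, under the replicate block (adjusted p = 0.0535), and without control replicate 1 (0.0735), control replicate 2 (0.0916) or CITED2-deficient replicate 2 (0.0598). Its rank was the same in every library, so quantile normalization gives it 1 value throughout. *Ireb2*, not called in any fit, changed sign after median-ratio scaling (0.031) and quantile normalization (0.0011). A fold change of at least 1.5 left 1549 of all tested genes, 3 members and 8 other iron genes, because it removes small changes by construction.

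Of all calls, 32.5% were higher as deposited, 50.5% of 5200 after median-ratio scaling and 42.2% of 5376 after quantile normalization, where the median log2 fold change of tested genes was -0.014 and -0.049. The other iron genes then gave 26 and 31 calls, and 18 and 21 of the 24 named ones were called. Without 1 library there were 5211 to 5475 calls in all, 8 to 9 members and 32 to 34 other iron genes. Limma-voom gave 6186, 9 and 37. With the replicate number as a block there were 5708 calls, 8 members and 33 other iron genes, and the exact permutation test of the ratios could not go below p = 0.25. Deviations of same-numbered libraries correlated by 0.014, 0.008 and 0.04, below the 0.1 needed to treat the numbers as pairs. Each ratio kept its direction in the 8 alternatives run for it (FPKM + 1, each library left out, and the block).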

Other observations

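*Lyz2*, whose locus drives Cre in both genotypes, was at 30.8, 30.6 and 32.5 FPKM in control and 9.39, 9.82 and 10.0 FPKM in CITED2-deficient BMDMs. *Ltf*, which encodes the iron-binding granule protein lactoferrin, was counted among the neutrophil markers and was at 99.8, 91.7 and 91.4 FPKM in control and 185, 185 and 162 FPKM in CITED2-deficient BMDMs (log2 fold change 0.90, limma adjusted p = 1.99e-06). The granule genes *Elane* and *Mpo* of the same marker list were lower, at 12.4 ± 0.491 against 2.15 ± 0.0701 FPKM and 16.2 ± 2.32 against 1.95 ± 0.271 FPKM (SD, n = 3 each). *Hamp*, the gene of hepcidin, the peptide that removes ferroportin from the surface, was listed at 0.387 FPKM in control replicate 1 and at 0 in the other libraries.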
